A study of Homo sapiens with 2 samples.

Results

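The genes examined here encode the core machinery of V(D)J recombination. They are 8 of the 57773 genes counted in the series, listed by function and matched by symbol to the Ensembl gene IDs of the files, namely RAG1, RAG2, DNTT, DCLRE1C, PRKDC, LIG4, XRCC4 and NHEJ1. All 8 reached the minimum of 10 reads in 1 or both libraries and were therefore compared. RNA sequencing data came from REH and 697, a pair of established human cell lines of B-cell precursor acute lymphoblastic leukemia, each a long-term culture derived from 1 patient and sequenced as 1 library. In REH the ETV6/RUNX1 fusion is present and the second ETV6 allele has been deleted. The line 697 lacks that fusion. Both lines were untreated and were grown in RPMI medium with serum.

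V(D)J recombination assembles the variable exons of antibody and T-cell receptor genes in lymphoid precursors. RAG1 and RAG2 form the recombinase that cuts DNA at signal sequences beside the gene segments and leaves hairpin-sealed coding ends. The ends are opened, trimmed, extended and then rejoined by non-homologous end joining, the general pathway for repair of double-strand breaks. B-cell precursor leukemias are arrested at a stage at which this machinery is expressed, and off-target RAG cutting is known as a source of deletions in ETV6/RUNX1-positive leukemia.

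The REH library held 45188375 reads in genes and the 697 library 41097497. There were no replicates, so no p-value is given, and each difference compares these libraries rather than the lines in general. Levels are given in CPM (counts per 1000000 reads in genes, with library totals scaled by the trimmed mean of M-values, TMM). The log2 ratio is REH over 697, computed with 0.5 reads added to each count, and its 95% interval covers counting error only. In bulk RNA, a smaller share of expressing cells and less RNA per cell cannot be told apart. Of 8 B-lineage markers, 7 had at least 10 reads in REH and 8 in 697, the exception being VPREB1 with 3 reads in REH and 10039 in 697. Of 5 T-lineage markers, CD3E alone reached 10 reads, with 45 in REH, and CD3D, CD2 and CD7 had 0 reads in both. The 5 myeloid markers summed to 253 CPM in REH, almost all of it MPO, and to 2.25 CPM in 697, most of it CSF1R. MPO had 12643 reads in REH and 12 in 697, CSF1R had 30 and 61, LYZ had 1 and 2, and ELANE 0 in both. The erythroid gene HBB had 0 reads in both. Of the stromal genes, COL1A1 had 477 and 387 reads and DCN 1 and 0. The part of these marker differences in the results below was not tested.

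Windows before an annotated start of the 3 genes that act only in V(D)J recombination are shown to compare their base composition and motif matches. Whether the transcripts in these libraries began at those starts was not tested. Each run is the 250 bases before the annotated start in RefSeq (GRCh38.p14), read 5′ to 3′ along the gene. Capitals mark E-boxes (CANNTG, the site bound by E proteins such as TCF3) and the ETS core AGGAAG on either strand. The windows are chr11:36510103-36510352 (plus strand) for RAG1, chr11:36598237-36598486 (minus strand) for RAG2 and chr10:96304184-96304433 (plus strand) for DNTT.
RAG1: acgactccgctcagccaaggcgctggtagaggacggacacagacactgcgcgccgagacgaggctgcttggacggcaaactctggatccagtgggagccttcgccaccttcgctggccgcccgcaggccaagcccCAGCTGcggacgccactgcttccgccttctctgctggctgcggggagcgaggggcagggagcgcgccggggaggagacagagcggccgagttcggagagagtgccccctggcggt
RAG2: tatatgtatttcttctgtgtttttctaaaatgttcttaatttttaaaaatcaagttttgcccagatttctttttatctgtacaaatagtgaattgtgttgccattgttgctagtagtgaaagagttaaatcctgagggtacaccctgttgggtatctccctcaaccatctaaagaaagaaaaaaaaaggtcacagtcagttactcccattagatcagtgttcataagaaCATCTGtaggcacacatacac
DNTT: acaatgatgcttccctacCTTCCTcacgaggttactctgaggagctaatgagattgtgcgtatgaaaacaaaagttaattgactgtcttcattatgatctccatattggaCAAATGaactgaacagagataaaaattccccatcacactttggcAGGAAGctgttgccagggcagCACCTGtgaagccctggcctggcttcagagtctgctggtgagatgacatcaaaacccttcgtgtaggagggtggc
The RAG1 window, which lies before the outermost start of a long gene model and beside the start of TRAF6, had a GC content of 70% and 25 CG pairs. Its values may therefore not be those of the RAG1 start in use in these lines. The RAG2 window, which belongs to the adjacent gene, had 34% GC and 0 CG pairs, and the DNTT window had 46.4% GC and 3 CG pairs. Over 35116 promoter windows of this length the medians were 58% GC and 11 CG pairs. RAG1 and RAG2 held 1 E-box each and DNTT 2, but an E-box occurred in 61.8% of all windows. DNTT held 2 ETS cores, found in 28.7% of all windows. No match was found in these 3 windows for the RUNX core TGTGGT (11% of all windows), the FOXO motif TGTTTAC (2.98%) or TATAAA (10.7%), and all motifs were searched on both strands.

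The members with the largest differences were RAG1, which was higher in REH, and DNTT, which was higher in 697. PRKDC was also higher in 697, by 1.90-fold, and the levels of the remaining genes differed by at most 1.23-fold between the lines. None of the 8 genes reached a log2 ratio of 2 in size, a size found for 20.7% of the 19145 genes tested. At a log2 ratio of 1, which 39.8% of all genes reached in either direction, RAG1 was past the threshold in the direction of REH, as were 22.4% of all genes, and DNTT in the direction of 697, as were 17.4%. The median log2 ratio of the 8 genes was -0.24, against 0.053 over all genes. All members but NHEJ1 were among the 10834 genes with 100 reads or more in each library. In that set the median was -0.081, with 5th and 95th percentiles of -1.62 and 1.31, against -3.08 and 4.78 over all genes. The shares over all genes, here and for the lists below, thus include thinly covered genes with wider ratios and are no benchmark of like coverage. Of the 8 ratios, 2 were above 0 and 6 below, and 7 counting intervals excluded 0. Without TMM scaling all log2 ratios rose by 0.31, the median of all genes stood at 0.36 and the median of the 8 genes became 0.072, so their position relative to other genes did not move.

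**Figure D1:**
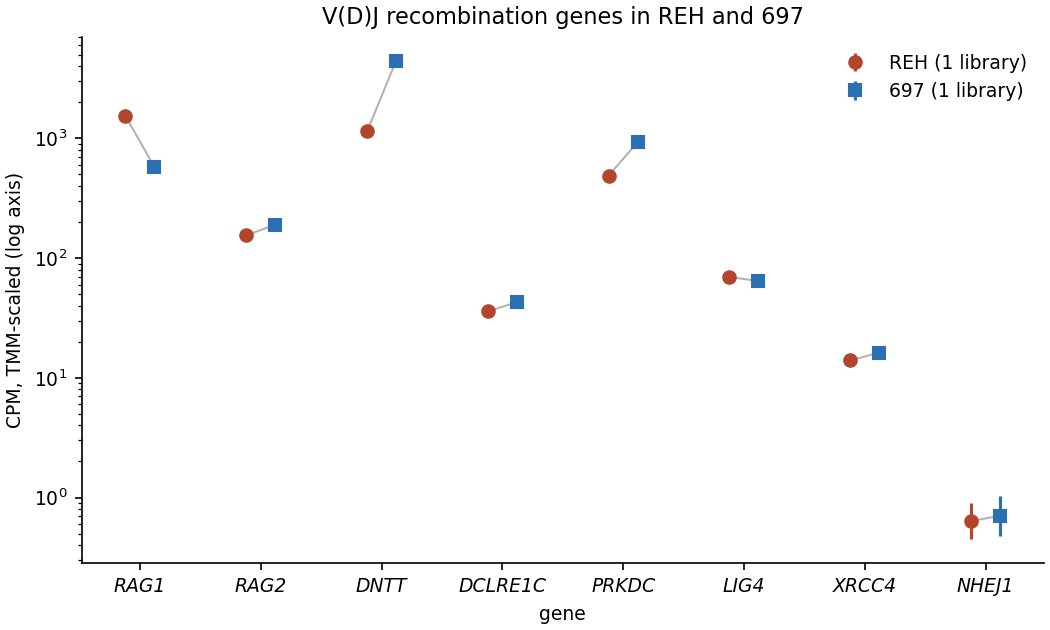
Levels of the 8 genes in CPM (TMM-scaled, log axis) in the REH library (circles) and the 697 library (squares), with 95% Wilson intervals of the read share as bars, mostly smaller than the symbols. RAG1 is higher in REH (1535 against 577 CPM) and DNTT higher in 697 (4433 against 1142 CPM).

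RAG1, the catalytic subunit of the recombinase (ENSG00000166349, chromosome 11, 36510372 to 36593156, plus strand, GRCh38), had 77158 reads in REH and 21317 reads in 697. This corresponded to 1535 CPM (95% Wilson interval 1524 to 1546) and 577 CPM (569 to 585). The level in REH was 2.66-fold higher, with a log2 ratio of 1.41 (interval 1.39 to 1.43). By CPM, RAG1 ranked 17 of all 19145 genes in REH and 255 in 697. Of all 19145 genes, 83.1% had a lower log2 ratio than RAG1. Among the 10834 genes for which each library held 100 reads or more, 95.8% did.

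RAG2, the partner subunit that reads the histone mark of active chromatin (ENSG00000175097, chromosome 11, 36575574 to 36598279, minus strand), is encoded on the opposite strand and overlaps RAG1. It had 7773 reads in REH and 7022 in 697, or 155 CPM (151 to 158) and 190 CPM (186 to 195). The log2 ratio was -0.30 (interval -0.34 to -0.25), but its sign depended on how overlapping reads were treated. The ratio was 0.17 with the reads of one strand and 0.26 with those of the other, and it was 0.0097 (interval -0.037 to 0.056) without TMM scaling. A direction for RAG2 can therefore not be given from these counts.

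The overlap could be followed in the strand columns of the files. These libraries carry no strand information, since 50.1% of RAG1 reads in REH and 50.2% in 697 fell on the strand of the gene. A read within exons of 2 genes on opposite strands is left out as ambiguous when strand is ignored, but is given to each gene in a different strand column. The sum of both strand columns less the unstranded count is thus the number of shared reads. RAG1 shared 6920 reads in REH and 2423 in 697. IFTAP, which overlaps the other end of RAG2 and encodes a protein of intraflagellar transport, shared 665 and 420. RAG2 shared 7585 and 2843 reads, in each library exactly the sum of the RAG1 and IFTAP values. Shared reads made up 49.4% of all reads on RAG2 exons in REH and 28.8% in 697, whereas for RAG1 they made up 8.23% and 10.2%.

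If all shared reads were given to RAG2 in both libraries, RAG2 had 15358 reads in REH and 9865 in 697, with a log2 ratio of 0.19 (interval 0.16 to 0.23). The extremes, with all shared reads given to RAG2 in 1 library and none in the other, were 0.68 and -0.79. The same treatment gave RAG1 a log2 ratio of 1.38, close to its value of 1.41 without shared reads, so that the sign turned for RAG2 and not for RAG1. RAG1 exceeded RAG2 in log2 ratio by 1.71 (interval 1.66 to 1.76), a difference that does not depend on library scaling, and by 1.19 (1.14 to 1.23) when shared reads were counted for both.

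The exon models of GENCODE 44, which may differ from those used for counting, placed 588 bases in exons of both RAG1 and RAG2, including 190 of the 1581 coding bases of RAG2. Read density over this stretch was 234 CPM per kb in REH and 112 CPM per kb in 697. Exons of RAG1 alone had 205 and 77.1 CPM per kb, and exons of RAG2 alone 60.8 and 74.8 CPM per kb. In REH the shared stretch was therefore closer in density to RAG1 than to RAG2, while in 697 it lay above both, which were alike there. The log2 ratio of the shared stretch was 1.07 (interval 1.00 to 1.14), between those of RAG1 alone and RAG2 alone.

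**Figure D2:**
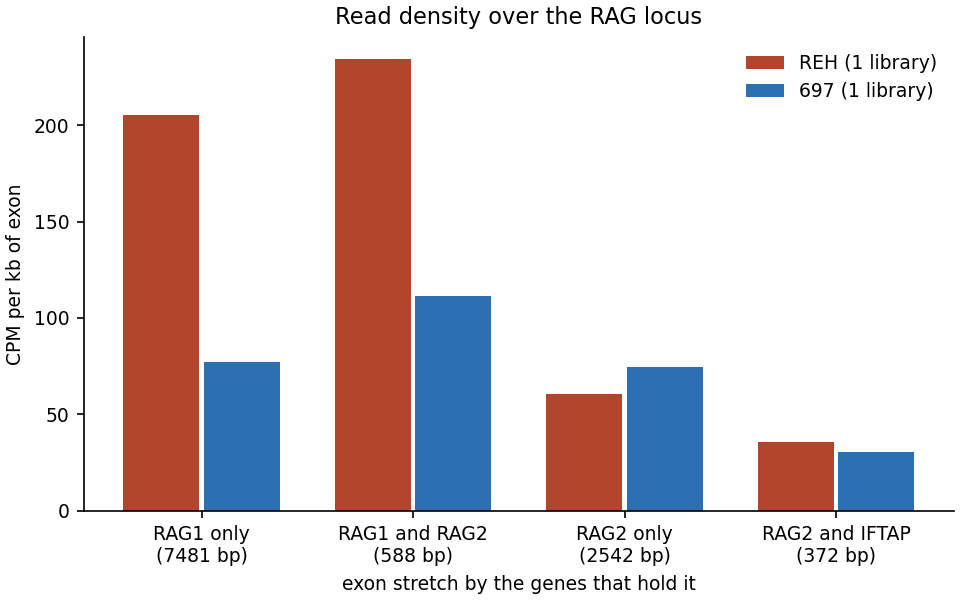
Read density (CPM per kb of exon) in REH and 697 over exon stretches that belong to RAG1 only, to RAG1 and RAG2, to RAG2 only, and to RAG2 and IFTAP, with the length of each stretch under its name. REH exceeds 697 over RAG1 (205 against 77.1) and over the stretch shared with RAG2 (234 against 112), whereas the stretch of RAG2 alone is at 60.8 in REH and 74.8 in 697, a difference that changed sign without TMM scaling.

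The genes on either side of the RAG locus were inspected next. TRAF6, a ubiquitin ligase of Toll-like receptor signaling whose start lies beside that of RAG1, had 1148 reads in REH and 899 in 697 (a log2 ratio of -0.09, interval -0.22 to 0.036). IFTAP had 403 and 222 reads outside the overlap (a log2 ratio of 0.41, interval 0.18 to 0.66). Neither neighbour thus showed a ratio of the size of that of RAG1.

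DNTT encodes terminal deoxynucleotidyl transferase (TdT), which adds nucleotides without a template at the junctions and is a diagnostic marker of lymphoblasts (ENSG00000107447, chromosome 10, 96304409 to 96338564, plus strand). It had 57392 reads in REH and 163775 in 697, or 1142 CPM (1132 to 1151) and 4433 CPM (4411 to 4454). The level in 697 was 3.88-fold higher, with a log2 ratio of -1.96 (interval -1.97 to -1.94), just inside the threshold of 2. Relative to the median of all genes it was -2.01. Without TMM scaling it was -1.65. DNTT ranked 10 of 19145 genes by CPM in 697, where it took 0.399% of all gene reads, and 33 in REH, where it took 0.127%. Only 4 reads in REH and 9 in 697 were shared with a gene on the opposite strand.

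RAG1 and DNTT thus differed in opposite directions, and their order by CPM was reversed between the lines. In REH, RAG1 stood above DNTT in CPM, and in 697 DNTT stood above RAG1. Per kb of exon, however, DNTT was above RAG1 in both, by 3.06-fold in REH and 31.6-fold in 697.

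DCLRE1C encodes Artemis, the nuclease that opens the hairpins (ENSG00000152457, chromosome 10, 14897359 to 14954432, minus strand). It had 1806 reads in REH and 1580 in 697, or 35.9 and 42.8 CPM, with a log2 ratio of -0.25 (interval -0.35 to -0.15) that became 0.056 (interval -0.042 to 0.15) without TMM scaling. It overlaps SUV39H2, a histone methyltransferase gene on the opposite strand, and 233 and 255 of its reads were shared. PRKDC encodes DNA-PKcs, the kinase that binds the broken ends and activates Artemis (ENSG00000253729, chromosome 8, 47773111 to 47960178, minus strand). It had 24560 reads in REH and 34360 in 697, or 489 CPM (483 to 495) and 930 CPM (920 to 940). The level in 697 was 1.90-fold higher (a log2 ratio of -0.93, interval -0.95 to -0.90), and it remained higher, at a log2 ratio of -0.62, without TMM scaling. The log2 ratio of DCLRE1C exceeded that of PRKDC by 0.68 (interval 0.58 to 0.78), so this nuclease and its activating kinase did not differ between the lines in proportion.

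The ligation step was represented by LIG4, XRCC4 and NHEJ1. LIG4, the DNA ligase of end joining (ENSG00000174405, chromosome 13, 108207439 to 108218368, minus strand), had 3498 reads in REH and 2371 in 697, or 69.6 and 64.2 CPM (a log2 ratio of 0.12, interval 0.041 to 0.19). XRCC4, the scaffold that stabilizes the ligase (ENSG00000152422, chromosome 5, 83077498 to 83353787, plus strand), had 701 and 600 reads, or 13.9 and 16.2 CPM (a log2 ratio of -0.22, interval -0.38 to -0.06). Without TMM scaling the XRCC4 ratio was 0.087 (interval -0.072 to 0.25), so its sign is not settled, whereas LIG4 was above 0 under each scaling. LIG4 exceeded XRCC4 in log2 ratio by 0.34 (interval 0.16 to 0.51). Both genes thus lay close to the median of all genes.

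NHEJ1 encodes XLF, a relative of XRCC4 that helps to align the ends (ENSG00000187736, chromosome 2, 219069355 to 219160869, minus strand). It had only 32 reads in REH and 26 in 697, or 0.637 CPM (0.451 to 0.899) and 0.704 CPM (0.480 to 1.03). The log2 ratio was -0.15 with an interval from -0.94 to 0.66, and it did not differ from that of XRCC4 within counting error (difference 0.070, interval -0.69 to 0.83). The reads were uneven over the strands, with 26 and 6 in the strand columns of REH and 26 and 0 in those of 697, although the other 7 genes had between 49.7% and 52.8% on the strand of the gene. In GENCODE 44 a protein-coding gene on the same strand (ENSG00000280537), which has no row in the files, overlaps 85541 bases of NHEJ1. Reads shared on the same strand are left out in every column. The gene IDs counted ended at ENSG00000273493, so ENSG00000280537 was not among them. Whether another gene counted here overlapped NHEJ1 on the same strand was not tested, and the NHEJ1 values are therefore uncertain as a level.

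**Figure D3:**
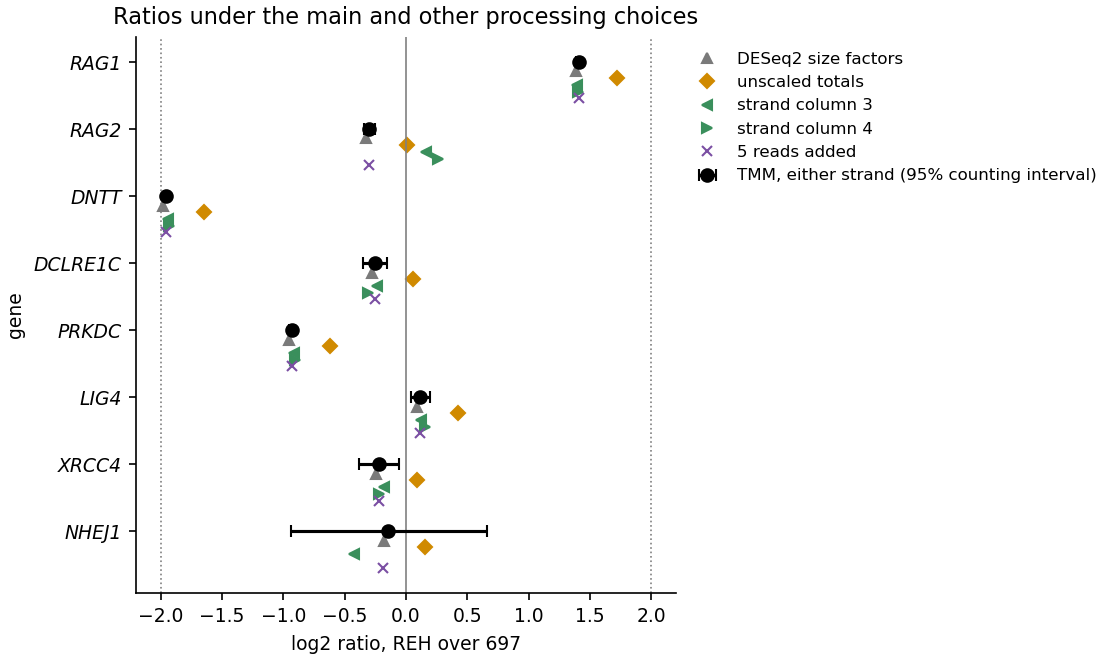
Log2 ratios of REH over 697 for the 8 genes (black circles, with 95% counting intervals) and their values with DESeq2 size factors, unscaled totals, each strand column and 5 reads added, with 0 as a solid line and the threshold of 2 in size as dotted lines. RAG1 and DNTT stay on opposite sides of 0 (1.41 and -1.96) under each choice shown, whereas RAG2, DCLRE1C, XRCC4 and NHEJ1 cross 0 without TMM scaling and RAG2 also with either strand column. NHEJ1 has no value for the second strand column, where it had 6 and 0 reads.

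Within each library, levels were compared per kb of summed exon length. The order was the same in both lines, namely DNTT, RAG1, RAG2, PRKDC, LIG4, XRCC4, DCLRE1C and NHEJ1, and no neighbours in this order had overlapping counting intervals. In REH the values fell from 583 CPM per kb for DNTT, 190 for RAG1 and 44.2 for RAG2 to 2.35 for DCLRE1C and 0.0610 for NHEJ1. In 697 they fell from 2263 CPM per kb for DNTT, 71.5 for RAG1 and 54.3 for RAG2 to 2.80 for DCLRE1C and 0.0674 for NHEJ1. Between these, PRKDC had 16.8 CPM per kb in REH and 32.0 in 697, LIG4 9.77 and 9.01, and XRCC4 5.21 and 6.07. Among these 8 genes, DNTT, RAG1 and RAG2 thus stood above the 5 that also serve general repair in both libraries. This did not extend to all repair genes, since the Ku gene XRCC5 had 109 CPM per kb in REH and 156 in 697, above RAG2 in both and above RAG1 in 697. Among 13489 protein-coding genes tested, DNTT ranked 20 per kb in REH and 12 in 697, RAG1 69 and 433, and RAG2 639 and 624. RAG1 exceeded RAG2 per kb by 4.31-fold in REH and by 1.32-fold in 697, from counts without shared reads over exons that include the shared bases. Over exons of 1 gene only, the ratio was 3.37 (interval 3.30 to 3.45) in REH and 1.03 (1.00 to 1.06) in 697, and with shared reads counted for both genes it was 2.38 and 1.04. RAG1 was thus above RAG2 per kb in REH under each count, while in 697 their order was close to even once the overlap was taken into account. With the length of 1 reference transcript per gene in place of all exons the order was the same, but the distances changed. DCLRE1C rose from 2.35 to 6.03 CPM per kb in REH and from 2.80 to 7.18 in 697. PRKDC rose from 16.8 to 36.3 and from 32.0 to 69.1, and LIG4 from 9.77 to 17.5 and from 9.01 to 16.1. In 697 PRKDC then stood closer to RAG2, at 69.1 against 79.6 CPM per kb.

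Other genes of the pathway were described from lists chosen by function. Of 12 further end-joining genes and RAG cofactors, 11 lay within a log2 ratio of 2 and 1, POLL, was past it in the direction of 697, or 8.33% of the list against 20.7% of all genes. Their median was -0.37. Those with the most reads were HMGB2, a DNA-bending cofactor of the recombinase, with 37570 reads in REH and 49064 in 697 (a log2 ratio of -0.83), and XRCC5, the Ku80 subunit of the end-binding Ku dimer, with 29868 and 31489 reads (a log2 ratio of -0.52). XRCC6, the Ku70 subunit, had 19961 and 17623 reads (a log2 ratio of -0.26), and the log2 ratios of the Ku subunits differed by 0.26 (XRCC5 minus XRCC6 -0.26, interval -0.29 to -0.22).

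TdT belongs to the X family of DNA polymerases, as do POLL and POLM, which fill gaps at the junctions. POLL, DNA polymerase lambda, had 16 reads in REH and 947 in 697, or 0.318 and 25.6 CPM (a log2 ratio of -6.29, interval -7.14 to -5.62). With reads shared by the opposite strand included it had 24 and 1148 reads (a log2 ratio of -5.99, interval -6.67 to -5.44). POLM, DNA polymerase mu, had 3033 and 1157 reads, or 60.3 and 31.3 CPM (a log2 ratio of 0.95, interval 0.85 to 1.05). The log2 ratios of these polymerases therefore differed by 7.23 (interval 6.52 to 7.94). Of DNTT, POLL and POLM, only POLM and DNTT were well covered in REH, whereas in 697 the smallest count of the 3 was the 947 reads of POLL.

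Of 10 genes of the response to double-strand breaks, 0 were past a log2 ratio of 2, against 20.7% of all genes. Their range was -0.80 to 0.89 with a median of -0.32. H2AX, the histone variant phosphorylated around breaks, had 7917 reads in REH and 10130 in 697 (a log2 ratio of -0.80), and RIF1, which limits trimming of the ends, had 9253 and 7367 (a log2 ratio of -0.12). Of 6 genes of alternative end joining, 0 were past the threshold, against the same 20.7% of all genes, with a median of -0.70. PARP1, a sensor of broken DNA, had 28809 reads in REH and 58536 in 697 (a log2 ratio of -1.47), and LIG1, the replicative DNA ligase, had 6937 and 8363 (a log2 ratio of -0.71). Of 6 genes of homologous recombination, 0 were past it, against 20.7% of all genes, with a median of -0.19. BRCA1 (5031 and 6288 reads, log2 ratio -0.77) and BRCA2 (3266 and 3846 reads, log2 ratio -0.68) had the most reads over both libraries together. RAD54L, which had more reads than BRCA2 in REH, had 3866 and 2846 (a log2 ratio of -0.0023).

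Transcription factors known to regulate the RAG genes or to act beside their regulators in B-cell precursors were also listed. Of 24 such genes, 23 were tested, with 1 past a log2 ratio of 2 in the direction of REH, where 12.5% of all genes were, and 2 in the direction of 697, where 8.15% were. Their median was -0.08. The gene higher in REH was SPI1, which encodes the myeloid and B-cell factor PU.1, with 2810 reads in REH and 19 in 697 (a log2 ratio of 6.73, interval 6.12 to 7.50). Higher in 697 were IKZF3, which encodes Aiolos (13 and 314 reads, log2 ratio -4.99, interval -5.96 to -4.24), and IRF8 (320 and 953 reads, log2 ratio -2.02, interval -2.21 to -1.83). Without TMM scaling IRF8 was inside the threshold. Those with the most reads were PAX5, the B-lineage commitment factor (39793 and 45212 reads, log2 ratio -0.63), and MYB (33843 and 40437 reads, log2 ratio -0.70). FOXO1, an activator of RAG transcription in B-cell precursors, was singled out after its values were seen. It had 6728 reads in REH and 1953 in 697, or 134 and 52.9 CPM (a log2 ratio of 1.34, interval 1.27 to 1.41). Short of a log2 ratio of 2 but larger in size than FOXO1 were TCF4 (-1.89), STAT5A (-1.80) and STAT5B (-1.70), all higher in 697. GFI1B had 0 reads in REH and 1 in 697 and was not tested.

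**Figure D4:**
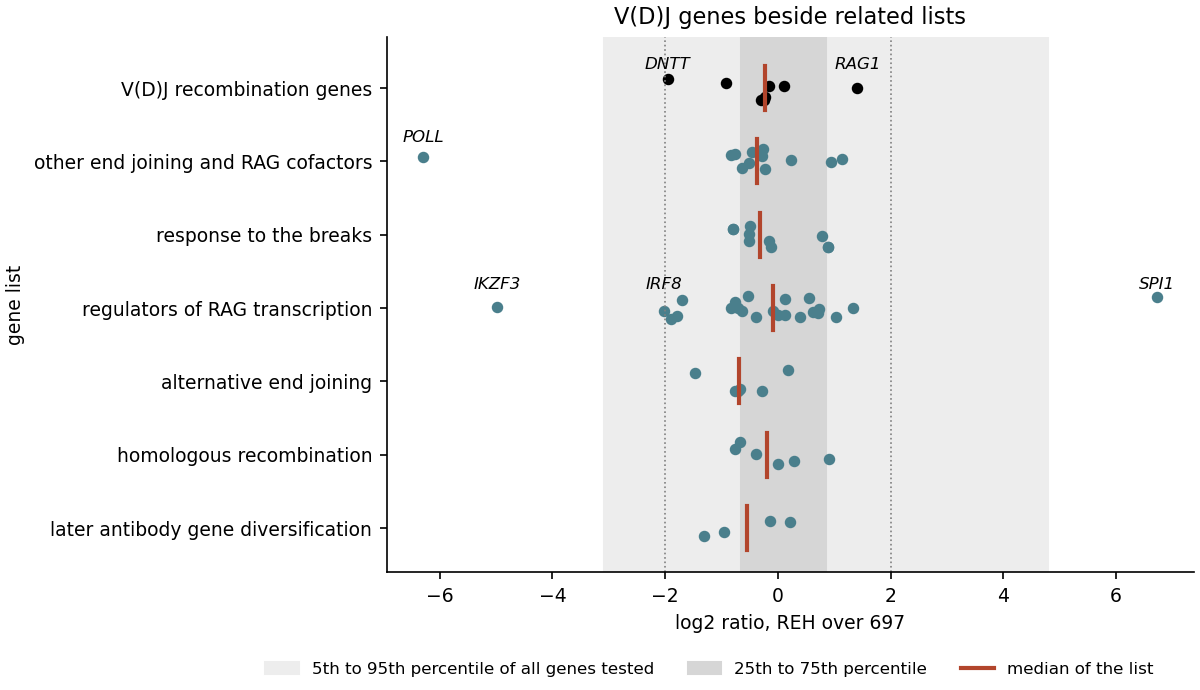
Log2 ratios of REH over 697 for the 8 V(D)J recombination genes (black) and for 6 lists of related genes (blue-green), with the median of each list as a red bar and vertical offsets within a list for legibility only. Grey bands span the 5th to 95th and the 25th to 75th percentile of all 19145 genes, and dotted lines mark a log2 ratio of 2 in size, past which POLL, IKZF3, IRF8 and SPI1 lie.

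Finally, genes of later antibody gene diversification were listed, since class switching and somatic hypermutation follow V(D)J recombination in mature B cells. Of the 4 genes tested, 0 were past a log2 ratio of 2, against 20.7% of all genes. MSH6, a mismatch repair gene that also serves in dividing cells of other kinds, had 37687 reads in REH and 53854 in 697 (a log2 ratio of -0.96).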

How the data were processed

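The authors deposited STAR gene counts from TruSeq libraries, 1 file per line, neither normalized nor filtered. The labels name hg19 and the methods hg38, and the annotation release is not given in the sources used here. The labels describe ribodepleted stranded libraries and the methods poly(A) purification. The unstranded column was used. Symbols, positions and exon lengths came from GENCODE 44 (GRCh38), matched by gene ID for 51996 of 57773 genes, and are not the coordinates used for counting. Promoter windows came from RefSeq (GRCh38.p14), where all members but PRKDC were found.

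The comparison took in 19145 genes, those reaching 10 reads in 1 or both libraries. Totals were scaled by TMM in edgeR 4.0.16 (R 4.3.3), with factors of 1.11 for REH and 0.899 for 697. Intervals of ratios are exact Clopper-Pearson intervals, those of levels Wilson intervals, and those of differences between genes normal approximations from 4 counts. Each library was its own group, so the planned comparison had no test. Alternatives were totals without scaling, size factors from DESeq2 1.42.0, TMM from protein-coding genes, other minimum reads, thresholds and added reads, and each strand column. On simulated data with these depths, 100% of 200 genes given a log2 ratio of 3 passed the threshold, as did 27 of the unchanged genes among 19145. The simulated counts held Poisson counting error only, and the changed genes were drawn from well-covered ones. This therefore gives no rate of false calls for the real libraries. The members and the lists were chosen with earlier results of these data known. The genes named are all members, in each list those past a log2 ratio of 2 and the 2 with the most reads, overlapping genes, and the neighbours of RAG1 and RAG2. Some genes of the lists are not reported here. Python 3.11.15 was used for the remaining steps.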

Additional observations from a re-analysis of the deposited data

How the results depend on the processing

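No paired analysis was possible because REH and 697 were sequenced once each, and for the same reason no replicate could be left out. RAG1, DNTT, PRKDC and LIG4 kept their direction under each alternative run. Counting reads shared by overlapping genes for both, per-kb levels from a reference transcript, the RAG1 to RAG2 ratio per kb over unshared exons and the neighbours of POLL were added after seeing the data. Without TMM scaling the log2 ratios were 0.0097 for RAG2, 0.056 for DCLRE1C, 0.087 for XRCC4 and 0.16 for NHEJ1, the median of the 8 genes was 0.072, and 1 regulator of RAG transcription was past the threshold in the direction of 697. These shifts follow from the scaling itself, which moves all ratios alike. The RAG2 ratio was 0.17 and 0.26 with the strand columns and 0.19 with shared reads counted for both genes, and RAG1 minus RAG2 was 1.23, 1.14 and 1.19. NHEJ1 minus XRCC4 was 3.50 in the second strand column (interval -0.66 to 7.66), from 6 and 0 NHEJ1 reads. At a threshold of 1, the numbers were 1 member in each direction, 1 end-joining or cofactor gene in each direction, 3 regulators higher in REH and 5 in 697, and 1 gene each of alternative end joining and later diversification higher in 697. Of all genes, 22.4% were past that threshold in the direction of REH and 17.4% in that of 697. NHEJ1 gave no value at a minimum of 50 reads. The counts of NHEJ1 are too low for a narrow interval.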

Other observations

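The gene beside POLL was looked up after the low POLL count in REH had been seen. DPCD lies on chromosome 10 (101570560 to 101609662, GRCh38) on the opposite strand and spans POLL. It had 16 reads in REH and 268 in 697 (a log2 ratio of -4.47, interval -5.34 to -3.78). The next protein-coding genes on either side did not share this difference. BTRC had 2855 and 1223 reads (a log2 ratio of 0.78, interval 0.68 to 0.88), and FBXW4 had 1611 and 1291 (a log2 ratio of -0.12, interval -0.23 to -0.018). The low counts in REH were thus found at the overlapping pair and not at the genes that flank it, and their source was not tested.

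Among the neighbours of the other members, BLNK, an adaptor of B-cell receptor signaling beside DNTT, had 8658 reads in REH and 14693 in 697 (a log2 ratio of -1.21, interval -1.25 to -1.17). OPALIN, on the other side of DNTT, had 398 and 359 reads (a log2 ratio of -0.30, interval -0.50 to -0.085). MCM4, a helicase subunit whose start adjoins that of PRKDC, had 18550 and 20941 reads (a log2 ratio of -0.62, interval -0.65 to -0.59). ABHD13, which shares its start region with LIG4, had 1540 and 760 reads (a log2 ratio of 0.57, interval 0.45 to 0.70). These neighbours, whose ratios had the sign of their member, were named after their values were seen. Others had the opposite sign under TMM scaling. Among them, NALF1, on the other side of LIG4, had 1 and 67 reads (a log2 ratio of -5.94). TMEM167A, beside XRCC4, had 4399 and 2601 (a log2 ratio of 0.31), and MEIG1, beside DCLRE1C, had 40 and 8 (a log2 ratio of 1.81). A shared direction of members and neighbours was thus not general.

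CYREN, an inhibitor of end joining, had 1662 shared reads beside 1615 counted ones in REH, so that, as for RAG2, the shared reads were about as many as the counted ones. Its log2 ratio was 1.14 (interval 1.00 to 1.29), and 1.00 (interval 0.90 to 1.10) with shared reads included.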
